A study of Homo sapiens with 6 samples.

Results

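Transcript levels of 8 genes of one actin-signalling route were examined in MOLT-4 cells: DOCK2, DOCK8, DOCK9, DOCK10 and DOCK11, which encode exchange factors, ELMO1, which encodes a DOCK partner, and WAS and WIPF1, which encode the Wiskott-Aldrich syndrome protein WASP and its chaperone WIP. They were taken by gene symbol from tables holding 60640 gene identifiers, 1 row per symbol, and were picked with the difference between the groups already known. For that reason their values are given as a description without a test. MOLT-4 is an established human line derived from a T-ALL, an acute leukemia of T-cell precursors. Polyadenylated RNA was sequenced in 3 wild type libraries, labelled as the CRISPR knockout control, and in 3 libraries labelled IK-KO, from MOLT-4 cells in which CRISPR-Cas had been directed at IKZF1, the gene of the zinc finger protein IKAROS. All 6 came from cells grown in the same serum-containing medium. The edited cells and their control were bought. The study reports PCR and protein blots as its checks of the knockout, and it shows blots for a pair of knockout clones. Which clone was sequenced is not given. An effect of the IKZF1 edit therefore cannot be told apart from any other difference between the edited and control lines.

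DOCK proteins are guanine nucleotide exchange factors: they load the small GTPases Rac and Cdc42 with GTP through a catalytic domain of their own type, and a lipid-binding domain brings them to the plasma membrane. GTP-bound Cdc42 opens WASP, which WIP holds ready, and open WASP switches on the ARP2/3 complex that branches actin filaments. Lymphocytes use this machinery to migrate and to build the contact with an antigen-presenting cell, and inherited loss of DOCK2, DOCK8, WAS or WIPF1 causes immunodeficiency.

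IKZF1, checked first, did not lose its RNA. Levels are given in FPKM, a fragment number scaled by transcript length and by the mapped fragments of the library. IKZF1 had 134, 124 and 105 FPKM in the wild type libraries against 207, 260 and 207 FPKM in those carrying the IK-KO label. On the log2(FPKM + 1) scale used throughout, IKZF1 was higher by 0.89 (SE 0.12; limma, adjusted p = 0.00295). RNA level does not read out an edited protein, and the second group is therefore called by its label. Libraries of the same group correlated across genes at Pearson r from 0.969 to 0.979, and libraries of different groups at r from 0.950 to 0.959. Relative depth, read from the width of the deposited confidence bounds, ran from 0.908 to 1.08 of the mean over libraries. The cells carried T-lineage RNA: 10 of 11 T-lineage markers had at least 1 FPKM in all 6 libraries, the exception being CD4, which passed this level in wild type alone. The summed level of those 11 markers was 1372 to 1439 FPKM in wild type and 1620 to 1819 FPKM in IK-KO, but the markers did not move together. In IK-KO, 4 of them (CD3D, CD3G, CD247 and CD1A) were higher in every library, 5 (CD2, CD4, CD5, CD7 and CD8A) were lower in every library, and CD3E and LCK overlapped between the groups. CD2 had 58.9 to 63.7 FPKM in wild type and 4.98 to 5.39 FPKM in IK-KO, and CD247 had 65.0 to 66.6 FPKM and 232 to 262 FPKM. Summed B-lineage markers stayed between 0.336 and 2.19 FPKM, myeloid markers between 0.0842 and 0.607 FPKM, natural killer markers between 1.52 and 4.79 FPKM, and erythroid, epithelial and fibroblast markers at or under 0.120 FPKM, with HBB, EPCAM, KRT19 and COL1A2 listed at 0 in every library. The part of these marker levels in the results below was not tested. In bulk RNA such as this, fewer cells with a transcript and less of it per cell cannot be told apart.

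All 8 genes had a mean of at least 1 FPKM over the 6 libraries, the level used here for the test across genes, and DOCK8 reached it through wild type alone. In 6 of the 8 genes the 3 wild type values and the 3 IK-KO values did not overlap, 4 of them lower in IK-KO (DOCK2, DOCK8, DOCK10 and WIPF1) and 2 higher (DOCK11 and ELMO1). Of the 12652 genes tested, 39.0% had groups that did not overlap (18.1% lower and 20.9% higher in IK-KO). The members were chosen on this contrast, so nothing is read from their count. The median log2 change of the 8 was -0.29, against 0.02 for all tested genes. FPKM is scaled for transcript length, so levels can be ordered between genes. In wild type the order of mean levels was DOCK2, WAS, WIPF1, ELMO1, DOCK9, DOCK8, DOCK10 and DOCK11, and only ELMO1 and DOCK9 overlapped as neighbours in it. In IK-KO it was DOCK2, ELMO1, WAS, WIPF1, DOCK9, DOCK11, DOCK10 and DOCK8, and only ELMO1 and WAS overlapped as neighbours.

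**Figure D1:**
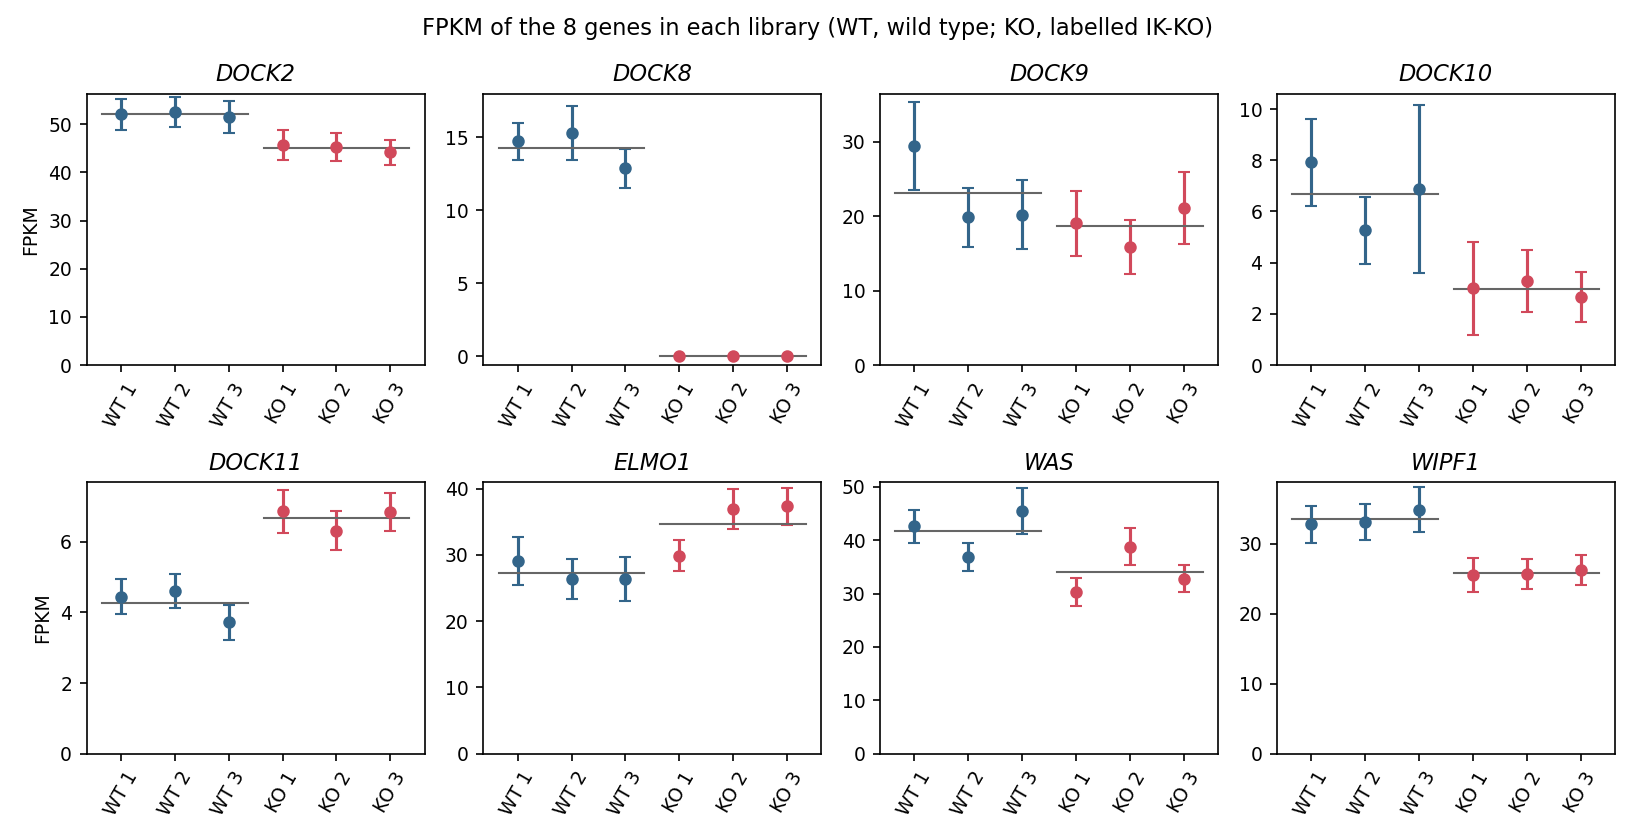
FPKM (vertical axes, each starting at or just under 0) of each of the 8 genes in the 3 wild type (WT, blue) and 3 IK-KO (KO, red) libraries. Points are deposited FPKM values, bars the deposited lower and upper confidence bounds, and horizontal lines group means. DOCK8 is listed at 0 in all 3 IK-KO libraries, DOCK11 is the DOCK gene with higher values there, and the DOCK9 and WAS values of the groups overlap.

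DOCK8 showed the widest separation. This DOCK-C exchange factor acts on Cdc42 and is joined to WASP by WIP. It lies on GRCh38 chromosome 9 at 214854 to 465259, on the plus strand, with 48 exons in its canonical transcript. Wild type libraries held 14.7, 15.3 and 12.9 FPKM (14.3 ± 1.27, SD, n = 3), and the gene was listed at 0 in IK-KO libraries 1, 2 and 3. The status of the estimate was OK in all 6 libraries, and the wild type confidence bounds ran from 11.5 to 17.1 FPKM. No fold is given because the listed IK-KO value is 0. Listed at 0 in all 3 IK-KO libraries were 51 tested genes, DOCK8 among them, and 6 of the 51 had at least 1 FPKM in every wild type library. In the other direction, 28 tested genes were listed at 0 in all 3 wild type libraries.

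Because DOCK8 lies near the end of the short arm, the genes beside it were read as well. Within 1 Mb, 5 other genes reached 1 FPKM in any library. KANK1, an actin regulator that starts 5.03 kb beyond DOCK8, measured 2.90 ± 0.565 FPKM in IK-KO and 4.04 ± 0.241 FPKM in wild type (SD, n = 3 each), with no overlap and a log2 change of -0.38 that did not pass the test (limma, adjusted p = 0.102). CBWD1, which ends 35.7 kb before DOCK8, was lower at 10.1 ± 0.549 against 14.3 ± 0.899 FPKM (SD, n = 3 each), a log2 change of -0.46 (adjusted p = 0.00847). WASHC1, toward the chromosome end, measured 5.89 ± 0.387 against 6.97 ± 0.554 FPKM (log2 change -0.21, adjusted p = 0.184). So the protein-coding genes on both sides of DOCK8 were still measured in the IK-KO libraries, and their IK-KO means were below the wild type means. CBWD1 and WASHC1 have near-identical copies elsewhere in the genome, which makes their values uncertain. AL161725.1, which overlaps the end of DOCK8, had 0.270, 0.315 and 1.11 FPKM in wild type and was listed at 0 in IK-KO, and AL392089.1 had 1.91 FPKM in wild type library 2 and was listed at 0 in the other 5. The overlap and the unknown strand setting make AL161725.1 uncertain.

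Chromosome 9 as a whole stood lower. The median log2 change of its 469 tested genes was -0.35, and 88.5% of them had a lower IK-KO mean, whereas the medians of the chromosomes that carry the other 7 genes (2, 5, 7, 13 and X) lay between 0.01 and 0.03. The part of the chromosome-wide shift in the DOCK8 values was not tested.

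**Figure D2:**
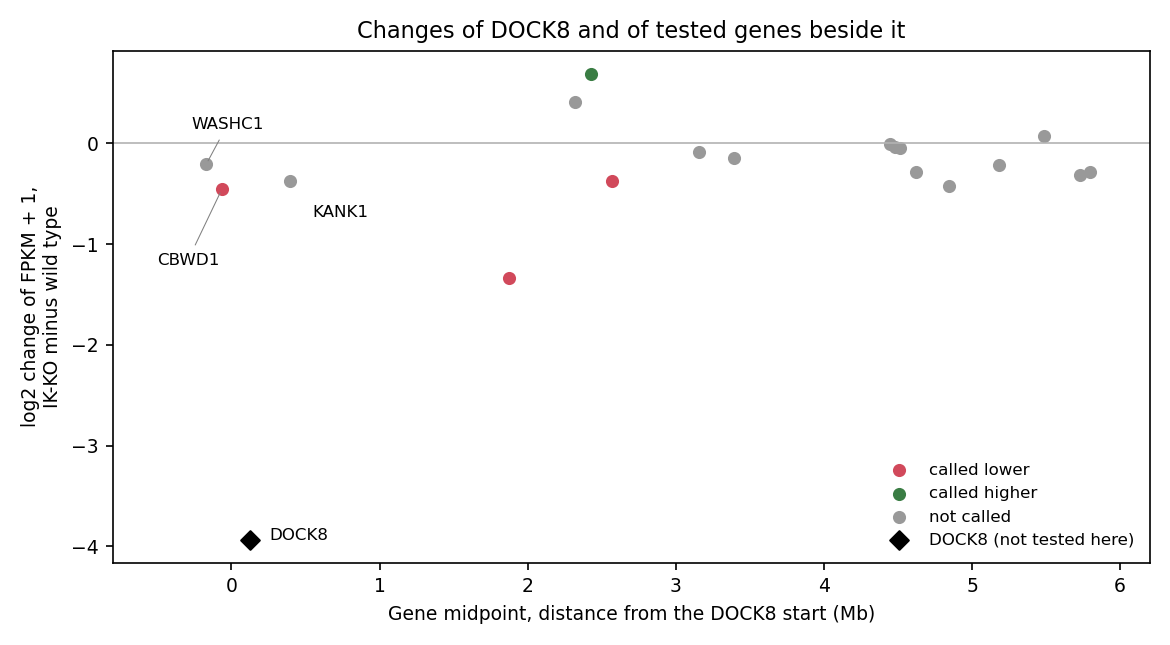
Log2 change of FPKM + 1, IK-KO minus wild type (vertical axis), of DOCK8 and of tested genes beside it on chromosome 9 against the distance of each gene's midpoint from the DOCK8 start in Mb (horizontal axis). Red and green points are genes called lower or higher by limma, grey points were not called, and the black diamond is DOCK8, whose position rests on the added 1 FPKM because its IK-KO values are 0. The genes on either side, WASHC1, CBWD1 and KANK1, lie between -0.46 and -0.21. Points farther from DOCK8 vary more, with a gene called lower at -1.34 and a gene called higher at 0.69.

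Promoter sequence is shown for DOCK8, DOCK10 and DOCK11, the members with the largest absolute log2 changes, because IKAROS is a DNA-binding protein with a known core motif. Windows are the 250 bases before each RefSeq transcript start on GRCh38.p14, written 5′ to 3′ on the strand of the gene in lower case, and capitals mark the IKAROS core, TGGGAA on either strand (TTCCCA when it lies on the opposite one). DOCK8 has a distal window at chr9:214615-214864 and an internal one at chr9:272796-273045. DOCK10, on the minus strand, is shown at chr2:224982428-224982677 and chr2:225042469-225042718, and DOCK11 at chrX:118495565-118495814.
DOCK8, window 1: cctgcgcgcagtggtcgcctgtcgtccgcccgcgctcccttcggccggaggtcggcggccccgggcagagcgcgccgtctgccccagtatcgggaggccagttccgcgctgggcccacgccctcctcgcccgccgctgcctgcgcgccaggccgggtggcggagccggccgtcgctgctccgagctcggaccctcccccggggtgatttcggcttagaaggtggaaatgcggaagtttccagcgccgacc
DOCK8, window 2: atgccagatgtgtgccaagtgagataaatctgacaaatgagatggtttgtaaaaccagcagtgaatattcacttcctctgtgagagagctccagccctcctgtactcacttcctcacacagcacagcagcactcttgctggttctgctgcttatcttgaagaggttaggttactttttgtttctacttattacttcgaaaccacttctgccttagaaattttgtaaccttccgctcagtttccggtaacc
DOCK10, window 2: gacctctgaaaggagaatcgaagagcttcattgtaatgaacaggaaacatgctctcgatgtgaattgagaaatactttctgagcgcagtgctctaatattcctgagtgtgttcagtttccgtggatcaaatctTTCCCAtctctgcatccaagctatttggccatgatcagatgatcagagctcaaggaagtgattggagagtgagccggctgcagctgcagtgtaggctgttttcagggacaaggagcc
DOCK10, window 3: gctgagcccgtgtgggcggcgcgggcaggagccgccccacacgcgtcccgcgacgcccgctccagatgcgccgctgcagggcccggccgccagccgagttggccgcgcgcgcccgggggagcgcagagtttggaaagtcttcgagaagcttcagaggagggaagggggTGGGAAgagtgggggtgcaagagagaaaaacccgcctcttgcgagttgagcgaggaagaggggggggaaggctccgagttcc
DOCK11: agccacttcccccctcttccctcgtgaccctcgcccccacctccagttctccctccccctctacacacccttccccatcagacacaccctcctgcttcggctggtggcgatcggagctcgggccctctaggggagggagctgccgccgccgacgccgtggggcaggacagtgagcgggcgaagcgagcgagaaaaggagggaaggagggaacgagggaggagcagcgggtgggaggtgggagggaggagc

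The DOCK8 windows differ in composition, with 75.2% G and C and 36 CpG pairs in window 1 and 43.6% and 3 CpG pairs in window 2. Neither they nor the DOCK11 window holds the core. DOCK10 holds it in windows 2 and 3 of its 3 (window 1, without it, is not shown), with the first base of the match 117 and 82 bases before the transcript start. Over the 19 windows of the 8 genes the core was found in 5, 1 of DOCK9, 2 of DOCK10 and 2 of WIPF1, beside 20.8% of the 35116 windows of this length in the table. The 19 are not all distinct sequence, since WIPF1 windows 3 and 4, both without the core, share most of their bases. The ETS letters CCGGAAG were in none of the 19 (8.52% of all windows) and the RUNX letters TGTGGT were in 1, a WAS window (11.0% of all windows). The 3 sets of letters were searched on both strands, and a window without them says only that these letters are not there.

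DOCK10 and DOCK11, both of the DOCK-D subfamily that acts on Cdc42, differed between the groups in opposite directions. DOCK10 (chromosome 2, 224765090 to 225042445, minus strand, 56 exons), an interleukin-4 responsive lymphocyte gene, had 7.92, 5.27 and 6.88 FPKM in wild type and 3.0, 3.29 and 2.66 FPKM in IK-KO. Every wild type value lay above every IK-KO value, although the confidence bounds of the 2 groups overlapped and reached 61.1% of the value on either side in the widest case. The means were 6.69 ± 1.34 and 2.98 ± 0.317 FPKM (SD, n = 3 each), 2.24-fold lower in IK-KO, with a log2 change of -0.94 (SE 0.15). DOCK11 (chromosome X, 118495898 to 118686163, plus strand, 53 exons), the Cdc42-activating protein also named zizimin2, had 4.44, 4.60 and 3.72 FPKM in wild type and 6.86, 6.31 and 6.84 FPKM in IK-KO. Here every IK-KO value was the higher, and the confidence bounds did not overlap either. The means were 4.26 ± 0.468 and 6.67 ± 0.309 FPKM, 1.57-fold higher in IK-KO, with a log2 change of 0.55 (SE 0.11). As a ratio within a library, DOCK11 to DOCK10 was 0.561, 0.873 and 0.541 in wild type and 2.29, 1.92 and 2.57 in IK-KO, so the 2 genes changed places in every library.

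DOCK9 (chromosome 13, 98793429 to 99086625, minus strand), the third Cdc42-directed gene of that subfamily and its most abundant one here, had 29.4, 19.8 and 20.2 FPKM in wild type and 19.0, 15.9 and 21.1 FPKM in IK-KO. The groups overlapped, and wild type library 1 stood above the other 5. The means were 23.2 ± 5.43 and 18.7 ± 2.61 FPKM and the log2 change -0.28 (SE 0.17), which became -0.11 without wild type library 1 and -0.18 without IK-KO library 2.

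DOCK2 and ELMO1 encode the partners of the main Rac exchange complex of lymphocytes, in which ELMO1 binds the end of DOCK2 and relieves its self-inhibition. DOCK2 (chromosome 5, 169637268 to 170083382, plus strand, 52 exons) was the highest of the 8 in both groups, at 52.0, 52.6 and 51.5 FPKM in wild type and 45.7, 45.2 and 44.1 FPKM in IK-KO. The groups were narrow and did not overlap (52.0 ± 0.548 and 45.0 ± 0.813 FPKM), their confidence bounds met, and the log2 change was small at -0.20 (SE 0.05). ELMO1 (chromosome 7, 36854361 to 37449249, minus strand, 22 exons) had 29.1, 26.4 and 26.4 FPKM in wild type and 29.9, 37.0 and 37.4 FPKM in IK-KO. All IK-KO values were higher, IK-KO library 1 by little over wild type library 1, and the confidence bounds overlapped. Its means were 27.3 ± 1.56 and 34.7 ± 4.20 FPKM and its log2 change 0.33 (SE 0.10), which was 0.15 with the median change of its neighbours removed. A differently drawn set, the 9 tested genes within 1 Mb of ELMO1, had a median log2 change of 0.63, above that of ELMO1. That median was not removed in any fit. Within 500 kb the median was 0.37, and within 2 Mb it was 0.23. The ratio of ELMO1 to DOCK2 FPKM was 0.560, 0.503 and 0.513 in wild type and 0.654, 0.817 and 0.846 in IK-KO, higher in every IK-KO library.

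WAS and WIPF1 encode the proteins that turn the Cdc42 signal into actin branching. WAS (chromosome X, 48676596 to 48691427, plus strand, 12 exons), the shortest of the 8 genes, had 42.6, 36.9 and 45.5 FPKM in wild type and 30.3, 38.8 and 32.8 FPKM in IK-KO. IK-KO library 2 lay above wild type library 2, so the groups overlapped. The means were 41.7 ± 4.39 and 34.0 ± 4.34 FPKM, with a log2 change of -0.29 (SE 0.11). WIPF1 (chromosome 2, 174559572 to 174682916, minus strand), whose product protects WASP from degradation, had 32.8, 33.1 and 34.8 FPKM in wild type and 25.5, 25.6 and 26.2 FPKM in IK-KO. These were tight groups that overlapped neither in their values nor in their confidence bounds, at 33.6 ± 1.12 and 25.8 ± 0.361 FPKM, and the log2 change was -0.37 (SE 0.06). The ratio of WIPF1 to WAS was 0.768, 0.897 and 0.765 in wild type and 0.842, 0.660 and 0.798 in IK-KO, and these overlapped.

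**Figure D3:**
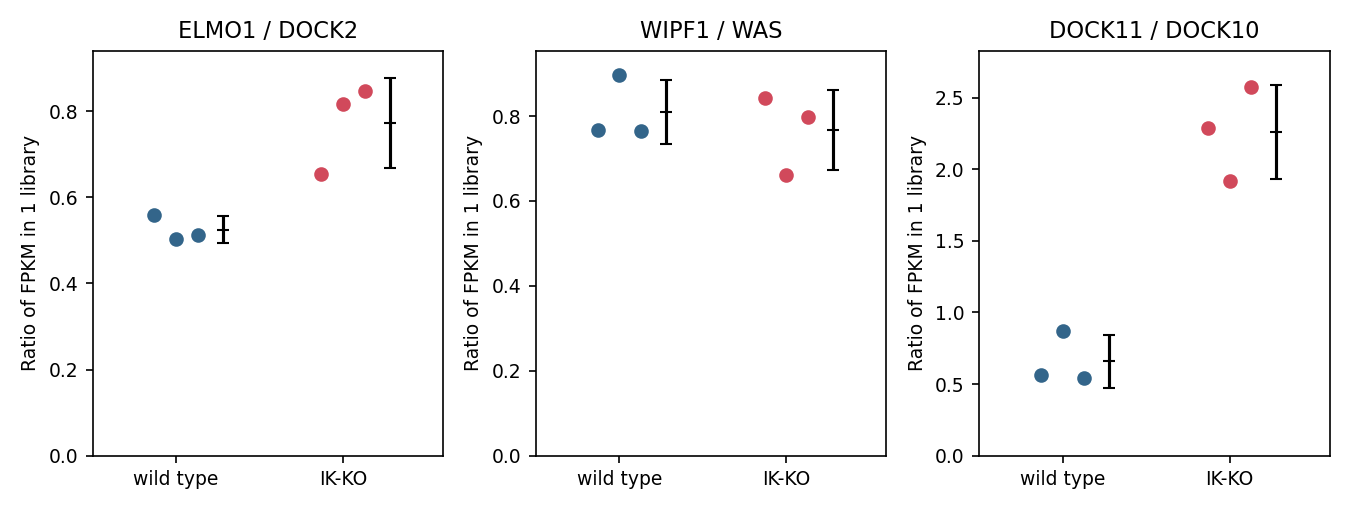
Ratios of FPKM within a library (vertical axes, from 0) for 3 pairs of genes, ELMO1 to DOCK2, WIPF1 to WAS and DOCK11 to DOCK10. Coloured points are the 3 libraries of each group and black bars the mean and SD. The first and last ratios were higher in every IK-KO library, and the WIPF1 to WAS ratios of the groups overlapped.

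Properties that played no part in picking the genes varied among them. The 8 lie on 6 chromosomes, 4 on each strand, and span 14.8 to 595 kb, with 7 above the median span of 27.4 kb of the tested genes. The tested genes within 1 Mb of the other genes had median log2 changes of -0.14 around DOCK2 (4 genes), 0.07 around DOCK9 (11 genes), 0.15 around DOCK10 (4 genes), -0.06 around DOCK11 (8 genes), -0.07 around WAS (29 genes) and 0.13 around WIPF1 (9 genes). DOCK9, DOCK10, DOCK11 and WIPF1 thus stood on the other side of 0 from the median of the genes around them. The medians around DOCK11 and WAS crossed 0 when the window was widened to 2 Mb.

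The 5 DOCK genes summed to 109, 97.6 and 95.2 FPKM in wild type and to 74.6, 70.7 and 74.7 FPKM in IK-KO, and the groups did not overlap. The DOCK-D sum (DOCK9, DOCK10 and DOCK11) was 34.1 ± 6.68 and 28.3 ± 2.58 FPKM (SD, n = 3 each), and there the groups overlapped. Shares of the sum are shares of a smaller total in IK-KO, where DOCK8 adds nothing. DOCK8 held 14.3% in wild type. DOCK2 held 51.9% in wild type and 61.4% in IK-KO, although its FPKM was lower there. The DOCK9 shares, 22.9% and 25.4%, overlapped between the groups. DOCK10 held 6.64% and 4.08%, and DOCK11 4.24% and 9.09%.

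**Figure D4:**
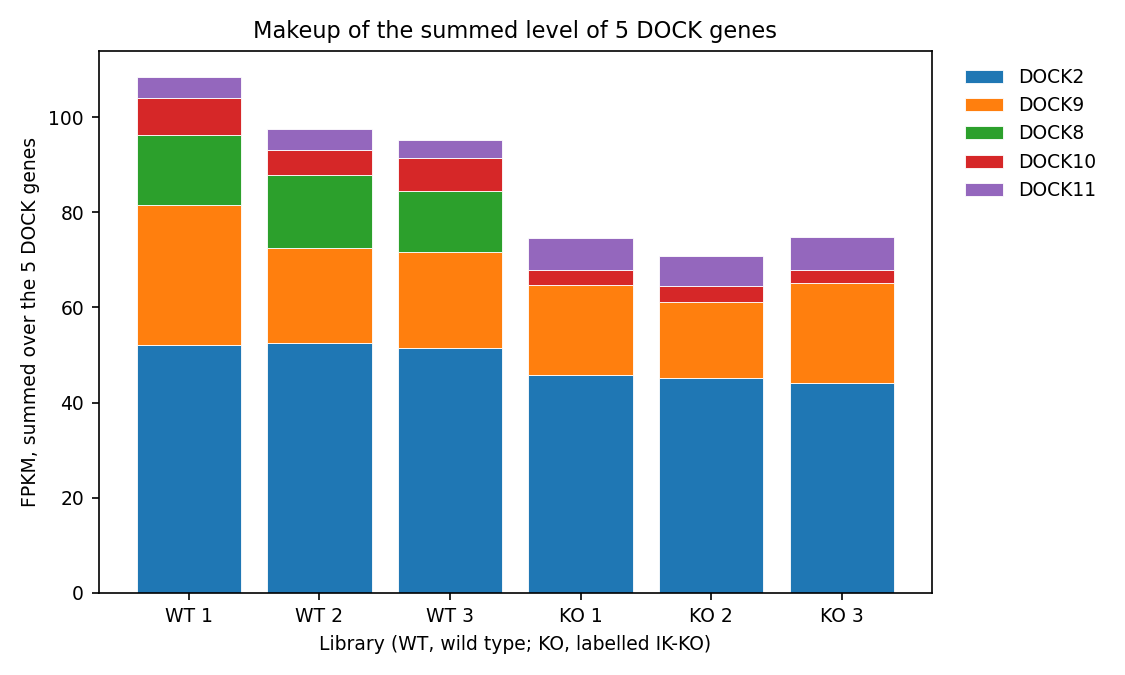
FPKM summed over DOCK2, DOCK8, DOCK9, DOCK10 and DOCK11 (vertical axis) in each of the 6 libraries (horizontal axis), with 1 coloured segment per gene. The IK-KO bars end between 70.7 and 74.7 FPKM, under the lowest wild type bar of 95.2 FPKM, and hold no DOCK8 segment.

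Other genes of the route were read from 4 lists drawn up from general knowledge, and these were tested. A gene is called when its limma p, adjusted over all 12652 tested genes, is under 0.05, and 19.9% of the tested genes were called (10.1% higher and 9.75% lower in IK-KO). The relatives read were DOCK1, DOCK3, DOCK4, DOCK5, DOCK6, ELMO2 and ELMO3. With limma 0 of the 2 that could be tested were called, and 0 had an unadjusted p under 0.05. ELMO2, the ELMO1 paralog, measured 22.7 ± 1.35 FPKM in wild type and 22.7 ± 1.99 FPKM in IK-KO (adjusted p = 0.994). DOCK4, a Rac exchange factor, had 1.63, 1.27 and 2.24 FPKM in wild type and 2.45, 2.14 and 2.30 FPKM in IK-KO, and these overlapped (log2 change 0.30, adjusted p = 0.271). The change was 0.17 without wild type library 2 and 0.43 without wild type library 3, with no call in either fit. DOCK3, DOCK5, DOCK6 and ELMO3 were below the mean of 1 FPKM, and DOCK1 was listed at 0 in every library.

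Of 22 other exchange factors and DOCK adaptors, 21 were tested and 7 were called (33.3%), all 7 lower, with a list median of -0.08. SWAP70, a Rac-binding protein of B cells and other blood cells, had 6.08, 6.48 and 5.69 FPKM in wild type and 1.40, 1.03 and 1.08 FPKM in IK-KO (log2 change -1.71, SE 0.13, adjusted p = 0.000233). VAV3, a tyrosine kinase-regulated exchange factor that acts on Rac, was lower (log2 change -0.82, adjusted p = 0.00232), as was ITSN2, a Cdc42 exchange factor that works with WASP (-0.80, adjusted p = 0.00357). TIAM1, a Rac exchange factor, was lower at -0.54 (adjusted p = 0.0159), a call lost without wild type library 1 or 2. The other 14 tested genes were not called, so the list held no called gene in the higher direction. A called gene of this list lies on chromosome 9, whose median is given above. The count was 6 with the median change of the neighbours removed.

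Of 23 genes of the WASP and WAVE family with their partners, 17 were tested and 8 were called (47.1%), 4 higher and 4 lower, with a list median of -0.07. WASF1, which encodes a WAVE protein driven by Rac, was higher, at 14.6, 13.1 and 12.9 FPKM in wild type and 32.1, 28.9 and 29.7 FPKM in IK-KO (log2 change 1.11, SE 0.08, adjusted p = 0.000174). It lies on chromosome 6, where the median log2 change of the 655 tested genes was 0.21. With the median change of its neighbours removed, the WASF1 change was 0.92 (limma, adjusted p = 0.000437). FNBP1L, a membrane-bending protein that recruits WASP relatives, was higher (log2 change 0.76, adjusted p = 0.00242), and its relative FNBP1 was lower (-0.61, adjusted p = 0.000654). FNBP1 lies on chromosome 9, whose median is given above, and with the median change of its neighbours removed its change was -0.31 (adjusted p = 0.0104). CYFIP2, a subunit of the WAVE complex, was lower at -0.47 (adjusted p = 0.00133), and the adaptor GRB2 was higher at 0.36 (adjusted p = 0.00197). ABI2 (0.27, adjusted p = 0.0499), ABI3 (-0.42, adjusted p = 0.0362) and NCKAP1L (-0.21, adjusted p = 0.0233), further WAVE complex subunits, each lost the call in 5 or more of the 6 fits that left out 1 library. The count was 5 without wild type library 1 or 2 or IK-KO library 1 or 3, and 6 with the median change of the neighbours removed.

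Of 34 ARP2/3 subunits and actin regulators, 33 were tested and 11 were called (33.3%), 5 higher and 6 lower, with a list median of -0.03. CORO1B, a coronin that acts on branched actin, was higher, at 12.3, 14.6 and 15.6 FPKM in wild type and 30.9, 38.3 and 37.6 FPKM in IK-KO (log2 change 1.27, SE 0.12, adjusted p = 0.000578). ENAH, which promotes filament elongation, was higher at 0.91 (adjusted p = 0.00140), and CORO1C at 0.64 (adjusted p = 0.00475). LCP1, the leukocyte actin-bundling protein plastin, was lower, at 356, 359 and 332 FPKM in wild type and 229, 231 and 236 FPKM in IK-KO (log2 change -0.59, SE 0.05, adjusted p = 0.000309). HCLS1, the blood-cell relative of cortactin, was lower at -0.34 (adjusted p = 0.00803) and the formin DIAPH1 at -0.28 (adjusted p = 0.00992). The calls of CTTN, cortactin itself (0.57, adjusted p = 0.0443), and of the ARP2/3 subunit ARPC4 (-0.28, adjusted p = 0.0161) were lost without wild type library 1 or 2 or IK-KO library 1 or 3, and that of CTTN also without wild type library 3. The summed ARP2/3 subunits were 1122 ± 52.0 FPKM in wild type and 1072 ± 8.16 FPKM in IK-KO, and the libraries of the groups overlapped. The count was 7 without wild type library 1 or IK-KO library 1 or 3, and 12 with the median change of the neighbours removed. Some called genes of this list lie on chromosomes 6 and 9, whose median log2 changes were 0.21 and -0.35.

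**Figure D5:**
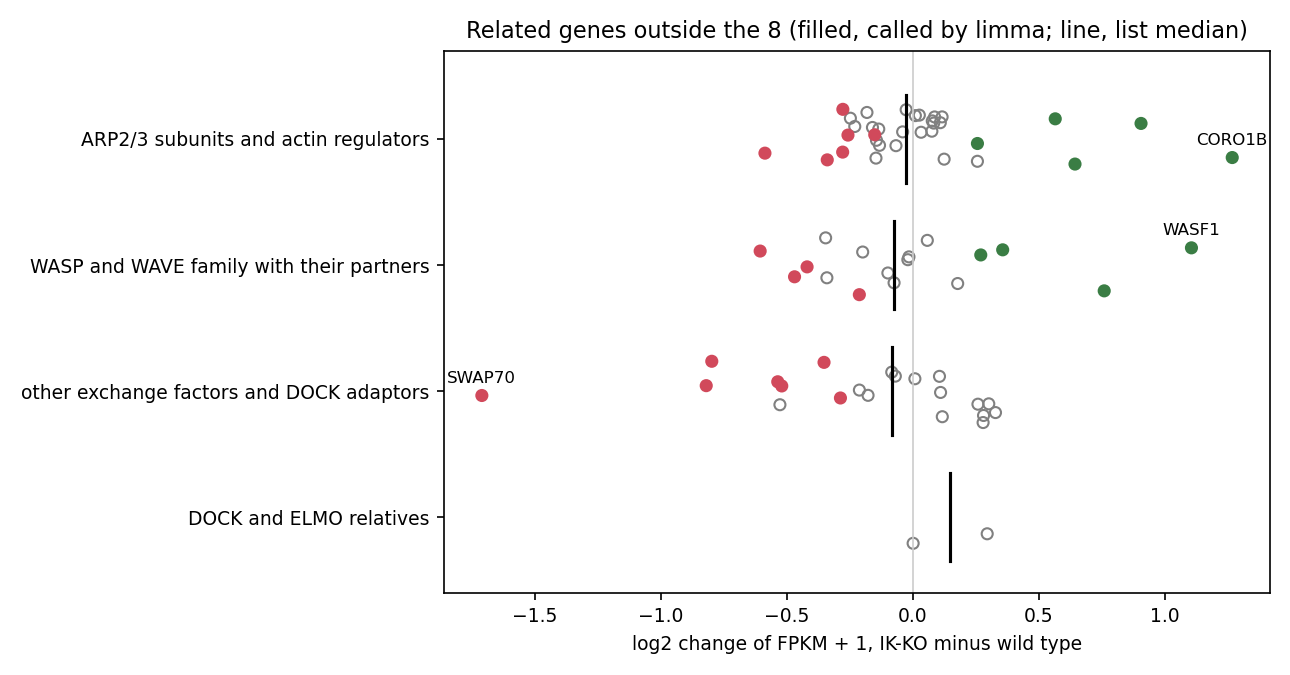
Log2 change of FPKM + 1, IK-KO minus wild type (horizontal axis), of the tested genes of the 4 lists (vertical axis, points spread within a list for display). Filled points were called by limma, green higher and red lower in IK-KO, open points were not called, and black lines are list medians. Changes run from SWAP70 at -1.71 to CORO1B at 1.27, while list medians lie between -0.08 and 0.15.

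The genes whose log2(FPKM + 1) ran most like that of DOCK8 over the 6 libraries were CD1B, TSPAN33 and FIRRE, each with a Pearson r above 0.99. CD1B, a lipid-presenting molecule of cortical thymocytes, had 128, 130 and 125 FPKM in wild type and 71.7, 73.1 and 72.7 FPKM in IK-KO. TSPAN33 had 11.1, 12.0 and 10.8 FPKM in wild type and 1.01, 1.13 and 1.09 FPKM in IK-KO. For DOCK11 they were LEF1, MORC3 and XPO5, and LEF1, a Wnt pathway transcription factor of T-cell development, had 745, 767 and 675 FPKM in wild type and 1011, 948 and 1010 FPKM in IK-KO. With 3 libraries a group such a likeness mostly repeats the difference between the groups: 157 genes passed an r of 0.99 with DOCK8 and 55 with DOCK11.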

How the data were processed

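Gene-level tables from 6 libraries were used, 1 table a library, each giving per row an FPKM, its confidence bounds and the status of the estimate. The authors had scaled the deposited FPKM for transcript length and library depth. The submitters' processing notes name STAR 2.6.1c, Cufflinks 2.2.1, HOMER 4.10 and hg38 without saying which made these tables. The annotation, the options and the strand setting are not given in the sources used here, and the RNA-seq methods in the study's text describe mouse libraries counted by another tool. Overlapping and antisense genes and genes with near-identical copies are therefore uncertain. No counts were given, and the confidence bounds are the only guide to the fragment number that limits the precision of low values. Of the identifiers whose version occurs in GENCODE 44 nearly all lay at the GENCODE position, so coordinates are on GRCh38, counted from 1.

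Groups and replicate numbers came from the library titles. Whether replicates are separate cultures is not given, so p-values measure only the spread between these libraries, which may be technical. Rows of 1 identifier were summed, and 29 genes with a status other than OK in any library were left out. Changes were tested on log2(FPKM + 1), which understates changes of low genes, with limma 3.58.1 in R 4.3.3 (two-sided, variance moderated along a mean trend, adjusted by Benjamini-Hochberg) in the 12652 genes whose mean reached 1 FPKM. A gene was called at an adjusted p under 0.05. The script was tested on simulated data. The study names another test with a fold limit for 2 conditions, and limma was used because a group has 3 libraries. The same replicate numbers in the groups did not mark shared deviations (correlations 0.067, 0.025 and 0.0055), so the fit has no block.

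The members and the lists were chosen with earlier results of these data known, and some related genes are not reported here. Besides the members, the genes named are IKZF1, the DOCK and ELMO relatives, up to 4 called genes higher and 4 lower from each other list by size of change, genes within 1 Mb of DOCK8 with at least 1 FPKM in any library, and the 3 genes most correlated with DOCK8 and with DOCK11. Promoter windows came from RefSeq on GRCh38.p14, where all 8 genes were matched. Alternatives were another pseudocount (0.1), no filter or a mean of at least 5 FPKM, median-ratio scaling, quantile normalisation, keeping failed estimates, no variance trend, removing the median change of the 10 tested genes on each side, a replicate block, and leaving out each library in turn.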

Additional observations from a re-analysis of the deposited data

How the results depend on the processing

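The direction of the change of each of the 8 genes was the same under every alternative in which it had a value; DOCK10 had none at a mean of at least 5 FPKM. Removing the median change of the neighbouring genes gave -0.15 for DOCK2, -3.82 for DOCK8, 0.15 for ELMO1 and -0.44 for WIPF1. DOCK2 gave -0.23 under median-ratio scaling and -0.23 under quantile normalisation. The fitted log2 value of DOCK8 is set by the pseudocount, -3.93 with 1 and -7.17 with 0.1, because its IK-KO values are 0. The median change around DOCK2 was -0.026 at 2 Mb, around DOCK9 0.17 at 500 kb, around ELMO1 0.37 at 500 kb and 0.23 at 2 Mb, around WAS -0.015 at 500 kb and 0.00081 at 2 Mb, around DOCK11 0.0013 at 2 Mb and around WIPF1 0.11 at 500 kb and 0.056 at 2 Mb. With 1 library left out, calls numbered 1692 to 2004 over all genes against 2515, 5 to 8 for other exchange factors, 5 to 6 for the WASP and WAVE list, 7 to 15 for actin regulators and 0 for DOCK and ELMO relatives. ELMO2, close to 0, turned negative under median-ratio scaling (-0.021), quantile normalisation (-0.0048), neighbours removed (-0.070) and in 4 of the 6 fits without 1 library, which ranged from -0.046 to 0.071. WASHC1 was 0.049 with neighbours removed. The replicate block called 1805 genes over all. The cause of these shifts was not tested. Fragment counts were not given and depth was only estimated from the confidence bounds, so a gene listed at 0 is not shown to be absent.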
